A study of Homo sapiens with 24 samples.

Results

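The genes of positive transcription elongation factor b (P-TEFb), of its inhibitory 7SK particle and of the super elongation complex were examined for changes in chromatin accessibility after inhibition of CDK9, the kinase subunit of P-TEFb. The 9 genes were CDK9, CCNT1, CCNT2, HEXIM1, HEXIM2, LARP7, AFF1, AFF4 and ELL2, of 20163 protein-coding genes in the annotation. A called region was assigned to a gene when it lay within 5 kb of a transcription start site (TSS) of the gene or overlapped its body by at least 1 bp. It was counted as a promoter call when it overlapped the 1 kb on either side of a TSS. Accessibility was measured by ATAC-seq, which cuts open chromatin with a transposase, in OCI-LY3 and VAL, 2 established human diffuse large B-cell lymphoma (DLBCL) lines.

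Each line was exposed to 30 nM AZD4573, a selective CDK9 inhibitor, and harvested at 0, 3 and 8 h, with 4 libraries for each of the 6 conditions and 24 libraries in all. By the sample labels, 2 libraries of each condition were standard ATAC-seq from 50000 cells and 2 were Fast-ATAC from 5000 cells, while the methods describe Fast-ATAC on 50000 cells. The 0 h libraries of a line were the controls for both of its times, and the deposited lists name that control DMSO. The labels do not say which libraries came from separate cultures. Each of the 4 comparisons, 3 h and 8 h against 0 h in each line, gave 1 list of increased and 1 of decreased regions. The OCI-LY3 lists held 1852 increased regions at 3 h and 4367 at 8 h, with 1677 and 3463 decreased. The VAL lists held 3545 increased regions at 3 h and 11121 at 8 h, with 1786 and 9260 decreased. The lists hold positions only, so they do not give the depth, the size of each change or its spread between libraries, and neither the library protocols nor the B-cell identity of the lines could be examined. A gene without a call may have had no peak or a peak below the thresholds, which these lists cannot tell apart.

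P-TEFb is made of CDK9 and a T-type cyclin, and it phosphorylates the tail of RNA polymerase II and the factors that hold the enzyme paused near promoters, so that elongation can start. Much of the P-TEFb in a cell is kept inactive in a particle built on the 7SK RNA, in which LARP7 protects the RNA and HEXIM proteins block the kinase. Active P-TEFb can instead join the super elongation complex, where AFF scaffold proteins hold it together with elongation factors of the ELL family.

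Promoter sequences are shown for the 3 genes whose promoters were called increased, CDK9, HEXIM1 and HEXIM2, because each of these stretches lay wholly inside its called region. They are the 250 bases before the start in the RefSeq promoter table (GRCh38.p14), placed in GRCh37 by exact match at chr9:130548063-130548312, chr17:43225592-43225841 and chr17:43238992-43239241, all on the plus strand. Capitals mark matches on either strand to the GC box GGGCGG, the CCAAT box CCAAT, the ETS letters CCGGAAG and the TATA letters TATAAA, and no capitals overlap another match.
CDK9: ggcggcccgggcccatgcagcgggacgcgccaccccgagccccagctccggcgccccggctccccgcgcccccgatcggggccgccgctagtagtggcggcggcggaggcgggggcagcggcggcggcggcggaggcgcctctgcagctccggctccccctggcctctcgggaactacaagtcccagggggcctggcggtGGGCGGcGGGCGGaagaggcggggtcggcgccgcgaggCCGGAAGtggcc
HEXIM1: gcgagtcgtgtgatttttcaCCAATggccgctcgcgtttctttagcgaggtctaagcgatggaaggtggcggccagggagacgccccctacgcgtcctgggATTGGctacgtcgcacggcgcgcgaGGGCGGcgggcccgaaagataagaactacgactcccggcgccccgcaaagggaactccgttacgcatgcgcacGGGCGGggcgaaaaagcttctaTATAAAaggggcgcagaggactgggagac
HEXIM2: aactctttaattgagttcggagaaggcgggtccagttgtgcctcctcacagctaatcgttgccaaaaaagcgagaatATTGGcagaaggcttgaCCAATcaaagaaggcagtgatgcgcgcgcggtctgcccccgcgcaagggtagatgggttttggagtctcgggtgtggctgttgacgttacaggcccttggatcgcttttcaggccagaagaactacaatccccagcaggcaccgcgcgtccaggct

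The 3 promoters differed in composition and in the letters they held. The GC content of these 250 bases was 82.0% for CDK9, 62.4% for HEXIM1 and 55.2% for HEXIM2. CDK9 had adjoining GC boxes whose first bases lay 50 and 43 bases before the start, and an ETS match 12 bases before it. HEXIM1 had 2 GC boxes, 2 CCAAT boxes and a TATA match 29 bases before the start. HEXIM2 had CCAAT boxes at 173 and 156 bases before the start and no GC box in this window. A match of letters is a description and not a measured binding site. Of 22198 RefSeq promoters of protein-coding genes, searched over 250 bases before and 50 after the start, 56.3% held a GC box, 34.7% a CCAAT box, 12.8% the ETS letters and 9.47% the TATA letters. An entry was found for 8 of the 9 genes, all but ELL2. Over these 8 promoters, each counted at the entry of the canonical TSS only, the GC box matched in 7 and the CCAAT box in 6. Entries at other starts of the same genes were left out, while the shares over all promoters count every entry. The other entries of CCNT1 and HEXIM2 held none of the searched letters. CDK9 and CCNT1 held the ETS letters, CCNT1 and AFF4 the E-box CACGTG (8.34% of all promoters), and LARP7 the cyclic AMP response element TGACGTCA (2.26%). None of the 8 held the AP-1 letters TGACTCA or TGAGTCA, which 4.01% of all promoters did.

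At the 9 genes, 12 calls were found, made up of 10 distinct regions, of which 4 were called increased and 6 decreased. VAL gave 10 of the calls and OCI-LY3 2. The VAL lists were also longer, with 5331 regions at 3 h and 20381 at 8 h, against 3529 and 7830 in OCI-LY3. Calls fell on 5 genes: CDK9, HEXIM1, HEXIM2 and AFF1 in VAL, and ELL2 in OCI-LY3. CCNT1, CCNT2, LARP7 and AFF4 had no call in any list, and neither did 46.7% of all protein-coding genes. Of the 10 regions, 4 lay at promoters, 5 in introns and 1 mostly in an exon. Whether a call in one line and none in the other reflects a different response was not tested.

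**Figure D1:**
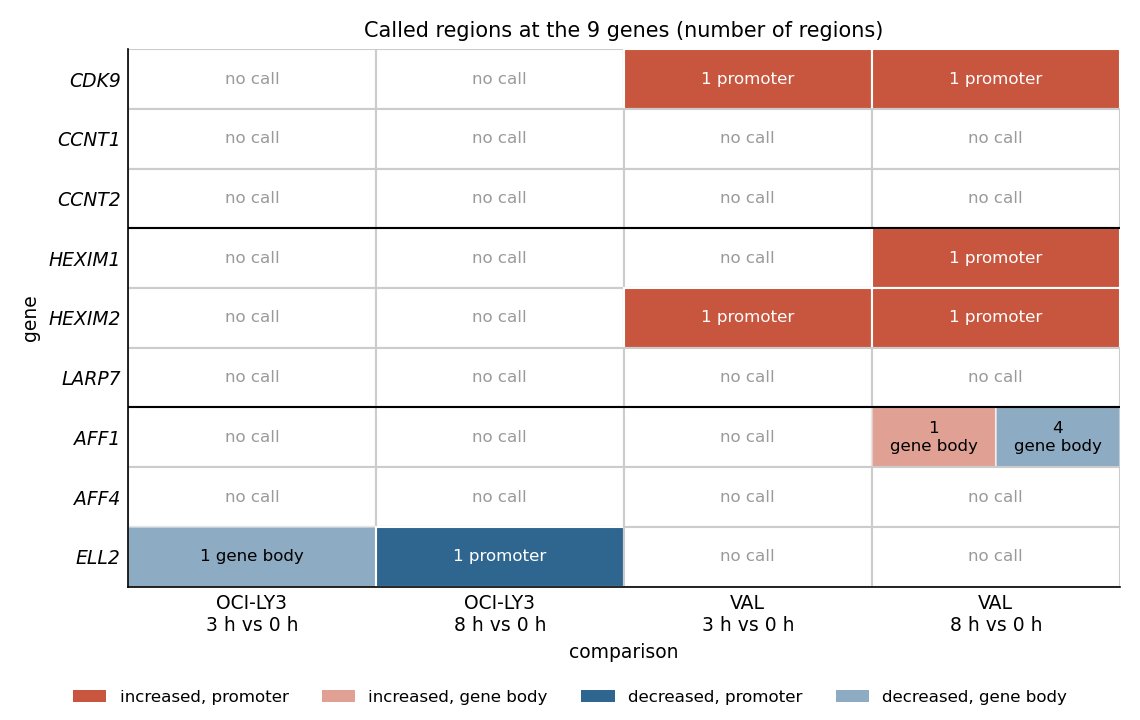
Calls at each of the 9 genes (rows, with lines between the P-TEFb, 7SK particle and super elongation groups) in each comparison with 0 h (columns). Cells give the number of called regions, dark fill for promoter and pale fill for gene body, red for increased and blue for decreased: the promoters of CDK9 and HEXIM2 were called increased in VAL at both times, that of HEXIM1 in VAL at 8 h, and that of ELL2 decreased in OCI-LY3 at 8 h.

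In VAL, 2 of the 9 genes had an increased region at 3 h, CDK9 and HEXIM2, against 15.2% of all protein-coding genes, and 4 at 8 h (with HEXIM1 and AFF1), against 34.6%. By promoter the counts were 2 at 3 h (background 10.3%) and 3 at 8 h (background 25.1%). A single gene of 9 amounts to 11.1%. The share of 33.3% at VAL promoters at 8 h was within 1 gene of the background, and that of 22.2% at 3 h was just over 1 gene above it. Decreased regions were found at 0 of the 9 genes in VAL at 3 h (background 4.24%, and 0.322% for promoters). At 8 h they were found at 1 gene, AFF1 (background 13.1%), and at 0 promoters (background 3.38%).

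In OCI-LY3, no gene of the 9 had an increased region at either time. Over all protein-coding genes, 9.34% had one at 3 h and 17.1% at 8 h, and 5.92% and 9.3% had an increased promoter. A count of 0 was less than 1 gene of 9 below each of these shares, apart from the 17.1%, where it was between 1 and 2 genes below. ELL2 alone had a decreased region, at 3 h (background 4.66%) and at 8 h (background 7.41%). Decreased promoters were found at 0 genes at 3 h (background 0.694%) and at ELL2 at 8 h (background 1.28%). The decreased promoter of ELL2 was thus 1 of 259 such genes in that list.

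CDK9, which encodes the kinase that AZD4573 inhibits, lies at chr9:130547958-130553071 on the plus strand of GRCh37. Its promoter was called increased in VAL at 3 h and at 8 h. The region was the same in both lists, chr9:130547162-130549032, 1871 bp wide with its centre 216 bp upstream of the canonical TSS, and it reached into exons 1 and 2. It also contained the hairpin of MIR3960 on the same strand, at chr9:130548112-130548202, which lies within the promoter stretch printed above, so accessibility of the gene and of the hairpin cannot be told apart. Its GC content of 73.8% was above that of 97.5% of the increased regions of VAL at 3 h and of 97.6% of those at 8 h.

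No call fell on CDK9 in OCI-LY3. The nearest increased region there, the same at 3 h and 8 h, ended 6.159 kb upstream of the TSS, at chr9:130540698-130542154, and was nearer to the TSS of SH2D3C. A distance of 10 kb in place of 5 kb would assign it to CDK9. Within 100 kb of the CDK9 TSS, OCI-LY3 had 1 increased region at 3 h and 2 at 8 h, VAL had 2 at 3 h and 13 at 8 h, and no comparison had a decreased one. The increase at CDK9 thus stood in a neighbourhood with many other calls of the same direction in VAL at 8 h, and its own region is among the 13. As many as 13 increased regions were found around 3.24% of all protein-coding genes and 6.51% of those on chromosome 9. HEXIM1 had 11 and HEXIM2 10 in that list, as many as were found around 5.91% and 7.57% of all protein-coding genes.

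CCNT1 and CCNT2 encode the T-type cyclins that activate CDK9, and neither had a call in any of the 8 lists. CCNT1 lies on chromosome 12 (chr12:49082241-49110781, minus strand). Its nearest increased region, near the TSS of KANSL2, was 33.782 kb away in each comparison but VAL at 3 h, when another lay 97.756 kb away. CCNT2 lies on chromosome 2 (chr2:135675805-135716912, plus strand) and had no call of either direction within 100 kb in any comparison. The nearest to it was a decreased region of VAL at 8 h, 159.54 kb upstream. The kinase gene and the cyclin genes therefore differed in their calls, although no test of that difference can be made from positions alone.

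HEXIM1 and HEXIM2 encode the related proteins that bind 7SK RNA and block P-TEFb, and HEXIM1 takes its name from its induction by hexamethylene bisacetamide. The genes are neighbours on the plus strand of chromosome 17, with 8.6 kb between them and 13.4 kb between their canonical TSS. Both promoters were called increased in VAL at 8 h, and that of HEXIM2 at 3 h as well. The HEXIM1 region, chr17:43224663-43226936, was 2274 bp wide, the widest of the 10 regions and wider than 95.6% of its list. Its centre lay 43 bp upstream of the TSS of this gene, which has a single exon, and its GC content was 56.9%. The HEXIM2 region, chr17:43238070-43239662, was 1593 bp wide with a GC content of 61.0%, and its centre lay 376 bp upstream of the canonical TSS. It contained 3 of the 4 annotated TSS of HEXIM2.

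Both regions also held starts of antisense RNAs. The HEXIM1 region contained the TSS of a long noncoding RNA on the minus strand, ENSG00000276728, and the HEXIM2 region contained 2 TSS of HEXIM2-AS1. ATAC-seq carries no strand, so accessibility of the gene and of its antisense neighbour cannot be told apart. At 3 h in VAL, when HEXIM1 had no call, the nearest increased region ended 12.169 kb upstream of its TSS, near the TSS of ACBD4. In OCI-LY3 the nearest increased region to HEXIM1 was 233.344 kb away at 3 h; by 8 h it was 73.041 kb away. No decreased region lay within 100 kb of either gene in any comparison.

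LARP7 encodes the La-related protein that binds and stabilizes 7SK RNA. The gene, on chromosome 4 (chr4:113558233-113578852, plus strand), had no call in any list. No increased region lay within 100 kb of its TSS. The nearest decreased regions were downstream, both called at 8 h, 68.305 kb away in VAL and 97.911 kb in OCI-LY3. Of the 3 genes of the 7SK particle, the calls were thus at the HEXIM genes, in the increased direction and in VAL. In VAL at 8 h, 54.6% of the protein-coding genes on chromosome 17 had an increased promoter, against 6.18% of those on chromosome 4. Whether the split between the HEXIM genes and LARP7 goes beyond these shares was not tested.

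AFF1 encodes a scaffold of the super elongation complex and is known as a fusion partner of KMT2A in leukaemia. It spans 206.038 kb on chromosome 4 (chr4:87856154-88062191, plus strand) and is longer than 92.9% of protein-coding genes. It had 5 calls, all in VAL at 8 h and none within 1 kb of a TSS of a transcript tagged basic. The 4 decreased regions were intronic, and 3 of them lay in intron 2, at chr4:87881903-87883946, chr4:87902469-87903878 and chr4:87918500-87920186. Their centres were 26.761, 47.01 and 63.18 kb downstream of the canonical TSS. The fourth, chr4:88014037-88015493, lay in intron 7, 158.602 kb downstream. The increased region, chr4:88036000-88036532, lay 180.103 kb downstream, and 452 of its 533 bp (84.8%) were in exon 12. It lay within 1 kb of a TSS of AFF1 when the starts of all annotated transcripts were counted. By basic transcripts the nearest TSS of a protein-coding gene was that of KLHL8.

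Both directions were therefore called inside 1 gene in the same comparison. The 200 bases at the centre of the first intron 2 region (chr4:87882824-87883023) and at the centre of the exon 12 region (chr4:88036166-88036365) are shown, plus strand of GRCh37, to compare a decreased with the increased stretch. They are in lower case throughout because none of the searched letters matched in these 200 bases. Over the 300 bases searched at each centre, the exon 12 region held 1 GC box. The second intron 2 region held 2 matches of the TATA letters and the third 2 CCAAT boxes.
AFF1 intron 2, decreased: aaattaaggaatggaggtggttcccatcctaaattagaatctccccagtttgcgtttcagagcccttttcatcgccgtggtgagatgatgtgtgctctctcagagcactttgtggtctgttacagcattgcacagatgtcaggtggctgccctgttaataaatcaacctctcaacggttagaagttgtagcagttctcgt
AFF1 exon 12, increased: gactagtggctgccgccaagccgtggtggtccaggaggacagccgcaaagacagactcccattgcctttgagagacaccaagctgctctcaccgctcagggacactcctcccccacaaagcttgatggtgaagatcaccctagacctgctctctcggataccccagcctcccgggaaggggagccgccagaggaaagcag

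The decreased stretch had a GC content of 46.0% and the increased one 61.0%. Over the whole regions, the 4 decreased ones ranged from 41.9% to 45.6% and the increased one was at 59.3%. A longer gene covers more bases that a region can overlap, and what part length had in these calls was not tested. Of the 1435 protein-coding genes at least as long as AFF1, 53.3% had a decreased region in VAL at 8 h and 15.4% had 4 or more, against 1.55% of all protein-coding genes with 4 or more. An increased region was found at 36.0% of these long genes.

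AFF1 had no call in VAL at 3 h, when its nearest decreased region was 1186.006 kb from the TSS, nor in OCI-LY3 at either time. In OCI-LY3 at 8 h a decreased region lay 26.4 kb upstream, outside the assignment distance and nearer to the TSS of C4orf36. AFF4, the other scaffold gene of the 9, lies on chromosome 5 (chr5:132211087-132299326, minus strand) and had no call in any list. Its nearest increased region was 62.026 kb upstream in VAL at both times and 96.232 kb downstream in OCI-LY3 at both times. The nearest decreased region, 482.06 kb downstream near IRF1, was the same in all 4 comparisons. The 2 scaffold genes thus differed in their calls, and the difference was not tested.

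ELL2 encodes an elongation factor that raises the rate of RNA polymerase II and is known for its part in immunoglobulin mRNA processing in plasma cells. It spans chr5:95220802-95297555 on the minus strand and was the only one of the 9 with calls in OCI-LY3, both decreased. At 3 h the call was chr5:95228183-95229367, a region of 1185 bp in intron 9, 68.78 kb downstream of the TSS, with a GC content of 40.2%. At 8 h it was another region, chr5:95296300-95298349, which covered the TSS and exon 1. The promoter region was 2050 bp wide with a GC content of 63.4%. It was wider than 94.3% and richer in GC than 95.8% of the decreased regions of OCI-LY3 at 8 h.

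The ELL2 promoter region also held 2 TSS of a long noncoding RNA on the opposite strand, ENSG00000251314, from which it cannot be told apart. The intronic region was called at 3 h and not at 8 h, and the promoter at 8 h and not at 3 h. In VAL, ELL2 had no call, and the nearest decreased regions were 180.028 kb from the TSS at 3 h and 102.096 kb at 8 h. Of the 4721 protein-coding genes at least as long as ELL2, a decreased region was found for 11.5% in the OCI-LY3 list of 3 h and for 20.7% in that of 8 h.

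**Figure D2:**
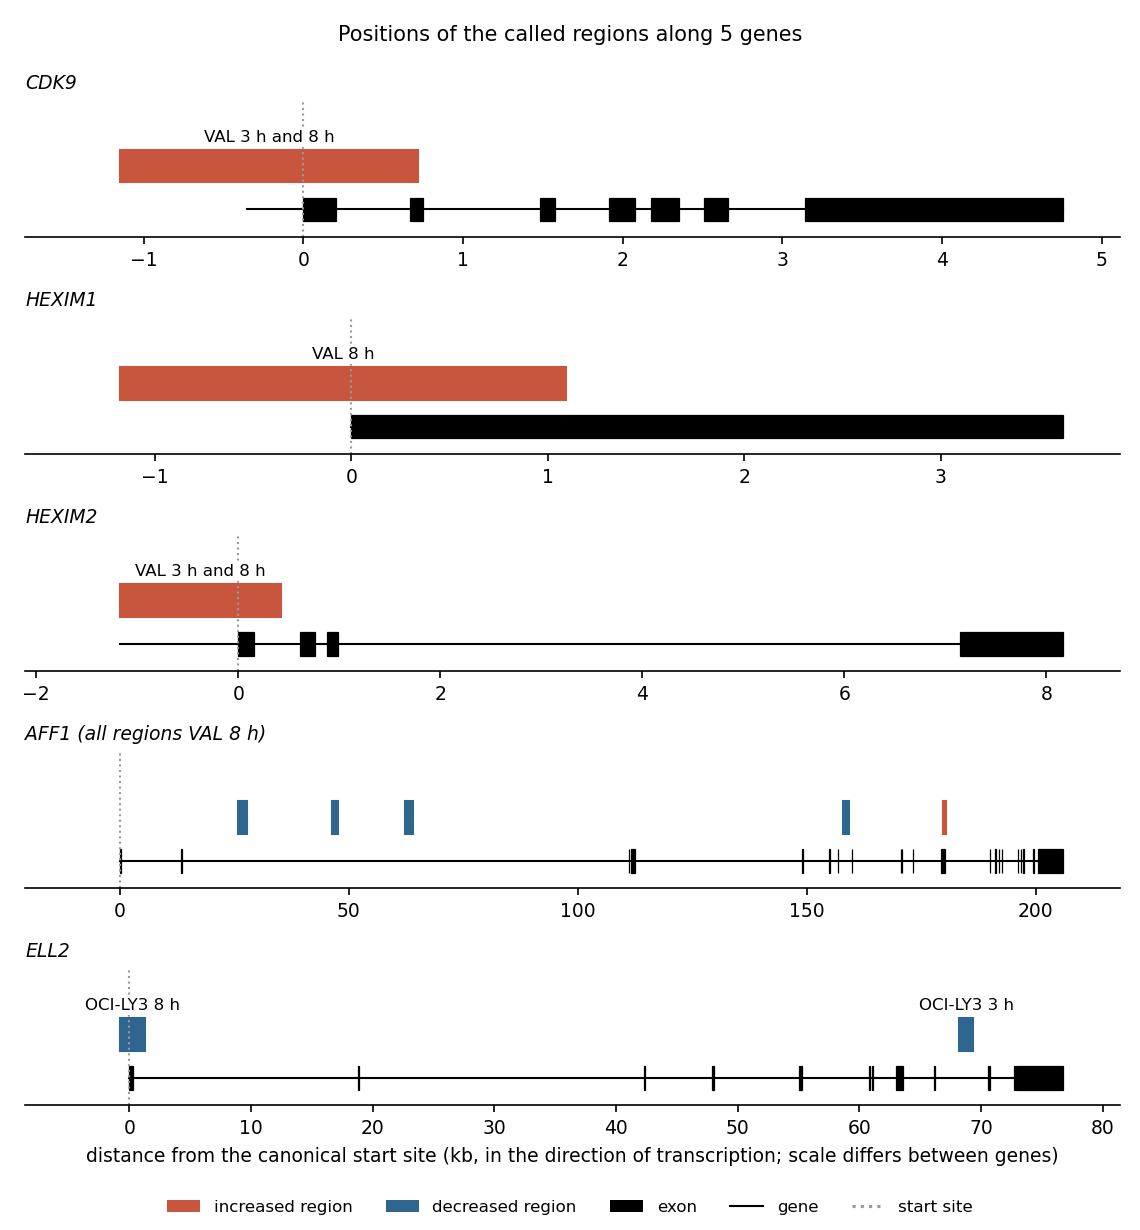
Called regions (red, increased, and blue, decreased) above the gene and its canonical exons (black), for the 5 genes with a call, by distance from the canonical TSS in kb in the direction of transcription; the scale differs between genes. The CDK9, HEXIM1 and HEXIM2 regions cover the TSS, the AFF1 regions lie 26.761 to 180.103 kb downstream, and ELL2 has a region at the TSS and another 68.78 kb downstream.

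The lists of 3 h and 8 h in a line rest on the same controls, so a call that recurs is not independent of the first. In VAL, 2 of 2 regions called at 3 h were also called at 8 h, where they made up 25.0% of 8. Over all VAL regions, 84.0% of those called at 3 h recurred at 8 h and made up 22.0% of that list, so the recurrence at CDK9 and HEXIM2 was not particular to them. In OCI-LY3, 0 of 1 region at 3 h was called at 8 h, and 0 of 1 at 8 h was called at 3 h. Over all OCI-LY3 regions the shared ones made up 60.2% of the 3 h lists and 27.1% of the 8 h lists. Between the lines, 0 of the regions were shared at 3 h, out of 1 in OCI-LY3 and 2 in VAL, against 28.5% and 18.9% of all called regions. At 8 h again 0 were shared, out of 1 and 8, against 43.7% and 16.8% of all called regions. With so few regions, nothing can be read from these zeros. No region had opposite directions in different lists.

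In GC content the promoter regions lay above the decreased gene-body regions, while their widths overlapped. The 4 promoter regions were 1593 to 2274 bp wide with a GC content of 56.9% to 73.8%. The 5 decreased gene-body regions were 1185 to 2044 bp wide with a GC content of 40.2% to 45.6%. The increased region in AFF1 exon 12 was the narrowest at 533 bp, narrower than all but 7.89% of the increased regions of VAL at 8 h. Its GC content of 59.3% was above the 56.9% of the HEXIM1 promoter region, so not every gene-body region lay below the promoter regions. Over whole VAL lists the median GC content was 58.2% at 3 h and 58.1% at 8 h for the increased regions, and 40.7% at either time for the decreased. In OCI-LY3 the decreased regions had medians of 45.3% at 3 h and 42.8% at 8 h. The decreased ELL2 promoter, at 63.4%, therefore lay well above the median of its own list, while the AFF1 introns exceeded 58.1% to 77.5% of theirs.

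**Figure D3:**
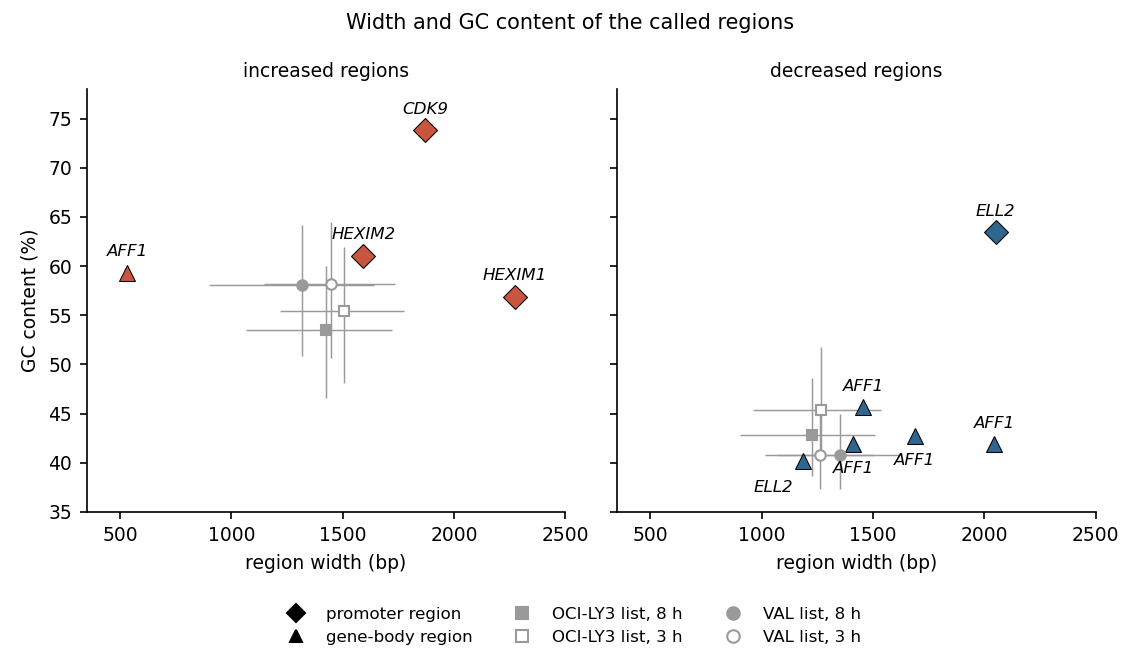
Width in bp and GC content in percent of the 10 called regions, increased at left and decreased at right, with diamonds for promoter and triangles for gene-body regions. Grey symbols are the medians of all regions in each list and grey lines their quartiles. CDK9 at 73.8%, the ELL2 promoter at 63.4% and the AFF1 intron 7 region at 45.6% lie above the upper GC quartile of their lists, and the ELL2 intron region at 40.2% lies below the lower one.

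The direction of calls differed between the chromosomes that carry the 9 genes. On chromosome 17, home of both HEXIM genes, 98.8% of the 409 regions called in VAL at 3 h were increased, and 98.7% of the 1190 at 8 h. There, 28.1% of protein-coding genes had an increased promoter at 3 h and 54.6% at 8 h, above 10.3% and 25.1% over the whole genome. The increased HEXIM promoters were thus of the direction that prevailed on that chromosome. On chromosome 9, where CDK9 lies, 65.8% of VAL regions at 3 h and 58.9% at 8 h were increased, and 10.6% and 26.3% of promoters were called increased. On chromosome 4, which carries AFF1 and LARP7, 84.2% of VAL regions at 8 h were decreased. On chromosome 5, which carries ELL2 and AFF4, 59.6% of OCI-LY3 regions at 8 h were decreased, and 1.58% of promoters had a decreased call. Each of the 5 genes with a call had its calls in the direction that prevailed on its chromosome in that comparison, apart from the increased region in AFF1. What part the chromosome had in these calls was not tested.

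**Figure D4:**
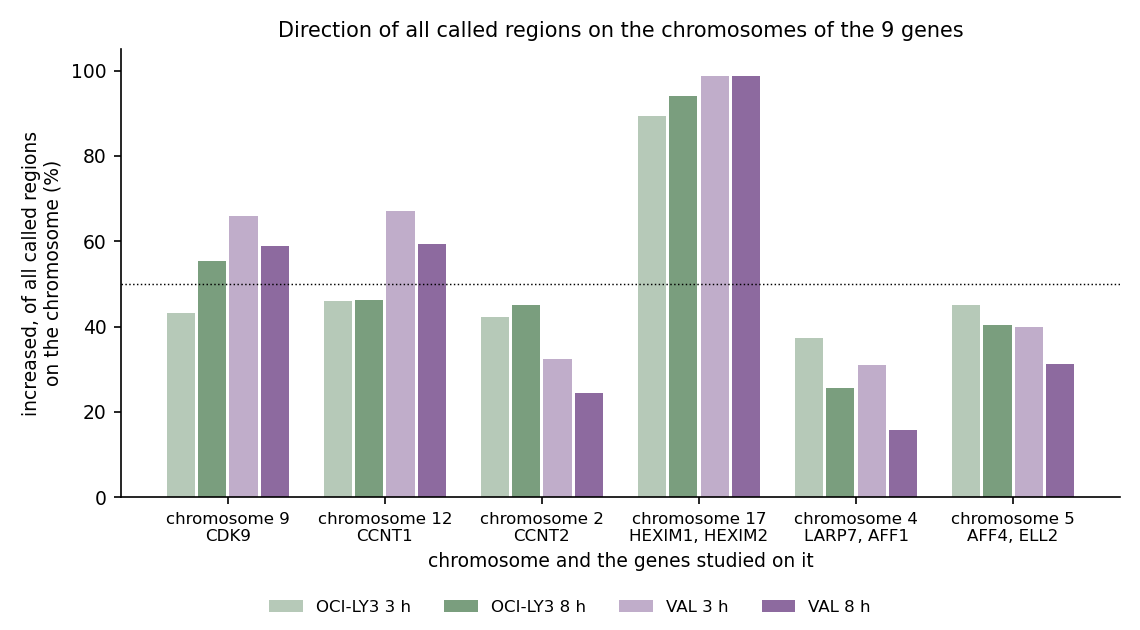
Share of increased regions among all called regions, in percent, on the 6 chromosomes that carry the 9 genes, for each comparison; the dotted line marks 50%. Chromosome 17 lies between 89.4% and 98.8% in all 4 comparisons, and chromosome 4 falls to 15.8% in VAL at 8 h.

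A further list of 18 genes held other parts of the pathway: other super elongation genes, other 7SK particle genes, factors that recruit or release P-TEFb, and other kinases and cyclins that act on the polymerase tail. Increased promoters were found for 4 of them in OCI-LY3 after 3 h (background 5.92%) and 3 after 8 h (background 9.3%). The VAL lists gave 4 after 3 h (background 10.3%) and 7 after 8 h (background 25.1%). Decreased promoters were found for 0, 0, 0 and 1 of the 18 in the same order of comparisons, against 0.694%, 1.28%, 0.322% and 3.38% of all protein-coding genes. By the wider rule of 5 kb or gene body, 4, 4, 6 and 10 of the 18 had an increased region, against 9.34%, 17.1%, 15.2% and 34.6% of all genes. A decreased region was found at 2, 1, 3 and 4 of the 18, against 4.66%, 7.41%, 4.24% and 13.1%.

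CDK12, a kinase that phosphorylates the polymerase tail during elongation, had an increased promoter in all 4 comparisons. MNAT1, an assembly factor of the CDK7 kinase, had one in both OCI-LY3 lists and in the VAL list of 3 h. PPM1G, a phosphatase that releases P-TEFb from the 7SK particle, had one in both OCI-LY3 lists and in the VAL list of 8 h. MLLT1, a chromatin reader of the super elongation complex, had one in the OCI-LY3 list of 3 h and in both VAL lists, and its paralog MLLT3 had the 1 decreased promoter, in VAL at 8 h, at an internal TSS. JMJD6, a dioxygenase of the JmjC domain family, had an increased promoter in VAL at both times. ELL and ELL3, relatives of ELL2, and MEPCE, which caps 7SK RNA, had an increased promoter in VAL at 8 h. No call fell on RN7SK, the gene of 7SK RNA itself.

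**Figure D5:**
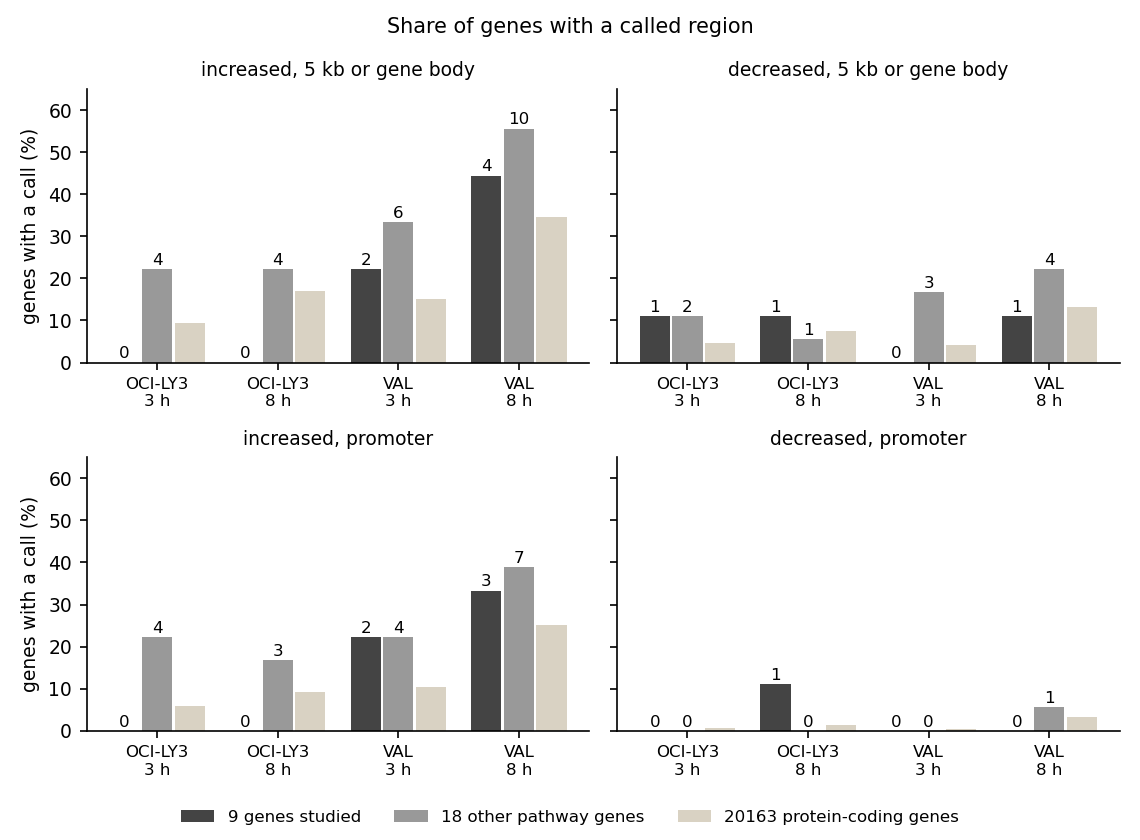
Share of genes with a called region, in percent, for the 9 genes, the 18 other pathway genes and all 20163 protein-coding genes, by comparison with 0 h; the upper panels count regions within 5 kb of a TSS or in the gene body, the lower panels promoters, and the numbers above the bars count genes. At VAL promoters at 8 h the increased share is 33.3% for the 9 genes, 38.9% for the 18 and 25.1% for all.

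Genes were also matched by their promoter calls over the 4 comparisons. CDK9 and HEXIM2 had the same pattern, increased in VAL at 3 h and 8 h and uncalled in OCI-LY3, and of the 18 other genes JMJD6 had it too. That pattern was found for 930 protein-coding genes (4.61%). The pattern of HEXIM1, increased in VAL at 8 h only, was the second most frequent, with 2464 genes (12.2%), among them ELL, ELL3 and MEPCE. The pattern of ELL2, decreased in OCI-LY3 at 8 h only, was found for 117 genes (0.58%), and no other gene on the lists of 9 or 18 had it. The other 5 genes had no promoter call, as did 67.6% of protein-coding genes. Sharing any of these patterns was therefore not particular to the 9 genes.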

How the data were processed

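The 24 ATAC-seq libraries were grouped by the cell line and treatment time in the labels. Per the labels and the study's methods, the authors used Bowtie2 for alignment to hg19 and discarded reads that were mitochondrial, not uniquely placed or PCR duplicates. Peaks came from MACS2 in each library and were merged with bedtools, and the authors compared their read counts between conditions with DESeq2. Their limits of fold change and adjusted p are given, but the adjusted p limit is stated differently in the methods and in a legend. Tool versions for the ATAC-seq steps are not given in the sources used here. The authors deposited 8 lists of region coordinates in bp, with no measured value for any region, so there were 0 columns of per-sample values and no test between groups was made.

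Regions were assigned to genes with Python 3.11.15, numpy 2.4.6, pandas 2.3.3 and pysam 0.24.0. Gene models were those of GENCODE lifted to GRCh37, with TSS of transcripts tagged basic, and GC content was read from the GRCh37 genome. A region counted within 5 kb of a TSS or on the gene body (at least 1 bp), and a promoter was 1 kb on either side of a TSS. The canonical TSS set distances. Shares over 20163 protein-coding genes stand beside the counts of called genes. In a simulated list, 200 of 200 planted promoter regions were found. All 9 members were named, as were genes of the list of 18 with a promoter call and those with a member's promoter pattern. Nearest genes were named after their values were seen. The members and lists were chosen with earlier results of these data known. Wider and narrower windows, region midpoints, other TSS sets and other overlap rules were tried as alternatives.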

Additional observations from a re-analysis of the deposited data

How the results depend on the processing

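Of 80 alternative values for the 20 counts above, 75 stayed within 1.5 times the reported count. Many of the reported counts were 0, and a narrower rule could only leave a 0 as it was, so part of this stability was fixed in advance. With 10 kb from a TSS in place of 5 kb, the genes with an increased region in OCI-LY3 became 1 at 3 h and 1 at 8 h, in place of 0, through CDK9 and the region 6.159 kb upstream. With the gene body left out, the genes with a decreased region became 0 for OCI-LY3 (3 h) and 0 for VAL (8 h), in place of 1, since the ELL2 and AFF1 regions are intronic. With each region given to the protein-coding gene with the nearest TSS, 3 genes in place of 1 had a decreased region in VAL at 8 h, LARP7, AFF1 and ELL2. Under both of these last rules, AFF1 dropped out of the genes with an increased region in VAL at 8 h, leaving 3 in place of 4. With the TSS of all transcripts, the genes with an increased promoter in VAL at 8 h became 4 in place of 3, through AFF1. No other promoter count and no count of shared regions changed. Leaving out a replicate or setting a stricter threshold could not be done on lists of positions. No paired analysis was possible because nothing in the lists belongs to a single library. The unknown depth limits what an absent call can show.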
